A study of Rattus norvegicus with 6 samples.

Results

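Immediate-early genes outside the AP-1 family were described in Schwann cell precursors (SCPs) and repair Schwann cells (RSCs) of the rat. They were Egr1, Egr3, Nr4a1, Nr4a2, Nr4a3, Ier2, Ier3, Dusp1, Klf4 and Klf6, 10 of the 29468 gene symbols in the tables. They were chosen by name as textbook members of this class that are not Fos or Jun proteins, with earlier results of these data known. RNA was sequenced from 3 samples of SCPs and 3 samples of RSCs, all from LEWIS rats that the labels give as wild type. In the paper the grafted cells came from transgenic LEWIS rats that express a red fluorescent protein. It does not say separately which rats gave the sequenced cells. The SCPs came from bilateral sciatic nerves and brachial plexus at embryonic day 14, from embryos given no treatment. The RSCs came from the distal segments of sciatic nerves of 10 week old rats, 1 week after the nerve was cut. By the study's methods, each group's samples were separate preparations of cells, and whether a preparation pooled several animals is not given in the labels.

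Both cell types were dissociated with enzymes before their RNA was harvested, and the RSCs were digested for longer and in a higher concentration of collagenase than the SCPs. Non-adherent cells were kept after a brief plating step meant to remove fibroblasts and macrophages. The age, the nerve cut, the nerves taken and the digestion differed together between the groups and cannot be told apart.

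Immediate-early genes are transcribed within minutes of a growth factor, calcium, stress or wounding signal, without new protein synthesis. Many are switched on through serum response factor (SRF) at CArG boxes, together with its ternary complex partners that ERK phosphorylates, and through CREB at cAMP response elements (CREs). The set holds zinc finger activators (Egr1, Egr3), orphan nuclear receptors that work without a known natural ligand (Nr4a1, Nr4a2, Nr4a3), Krüppel-like factors (Klf4, Klf6), small regulators named for their rapid induction (Ier2, Ier3) and a phosphatase that shuts off MAP kinases (Dusp1). In the Schwann cell lineage the best known relative is Egr2 (Krox-20), which drives myelination. Enzymatic dissociation of tissue is also a known trigger of this class.

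Promoters of 7 of the 10 genes were matched in RefSeq's table of the GRCr8 build, each running from 250 bases before the annotated start to 50 bases from it. The 4 below are shown because they hold a whole CArG box or a whole CRE, the sites through which SRF and CREB act. Capitals mark matches, on either strand, to the CArG box, to the CRE (TGACGTCA) and to the CRE half-site (TGACG, which lies inside the CRE).
Egr1 (GRCr8, chr18:26736828-26737127, plus strand): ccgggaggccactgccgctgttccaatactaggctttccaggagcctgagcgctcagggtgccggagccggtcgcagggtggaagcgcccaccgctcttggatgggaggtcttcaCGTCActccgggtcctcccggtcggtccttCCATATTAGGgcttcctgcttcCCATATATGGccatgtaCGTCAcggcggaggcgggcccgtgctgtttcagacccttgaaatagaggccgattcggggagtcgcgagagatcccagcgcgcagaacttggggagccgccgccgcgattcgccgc
Klf6 (GRCr8, chr17:69458429-69458728, minus strand): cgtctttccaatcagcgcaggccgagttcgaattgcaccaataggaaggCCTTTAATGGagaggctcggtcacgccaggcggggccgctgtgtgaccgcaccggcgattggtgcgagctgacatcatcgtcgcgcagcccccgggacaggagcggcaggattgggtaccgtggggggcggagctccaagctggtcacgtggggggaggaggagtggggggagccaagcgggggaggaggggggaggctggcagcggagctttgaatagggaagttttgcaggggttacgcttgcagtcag
Ier2 (GRCr8, chr19:40399123-40399422, plus strand): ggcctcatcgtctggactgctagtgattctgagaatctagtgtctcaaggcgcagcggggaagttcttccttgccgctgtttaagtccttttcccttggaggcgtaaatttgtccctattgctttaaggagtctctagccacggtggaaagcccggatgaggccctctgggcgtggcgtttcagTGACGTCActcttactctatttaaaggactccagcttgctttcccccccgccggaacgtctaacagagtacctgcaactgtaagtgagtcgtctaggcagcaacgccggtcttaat
Dusp1 (GRCr8, chr10:17184603-17184902, plus strand): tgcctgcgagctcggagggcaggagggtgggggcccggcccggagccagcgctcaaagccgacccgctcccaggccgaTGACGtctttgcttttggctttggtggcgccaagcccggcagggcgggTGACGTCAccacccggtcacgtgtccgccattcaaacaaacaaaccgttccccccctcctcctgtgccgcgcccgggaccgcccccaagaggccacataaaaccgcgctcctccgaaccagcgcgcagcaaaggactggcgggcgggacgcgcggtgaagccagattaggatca
Egr1 held a pair of CArG boxes, at -105 to -96 and at -83 to -74 from the start, and Klf6 held 1 at -201 to -192. A CArG box was found in 1.64% of the 33465 rat promoters searched. The CRE stood at -66 to -59 in Ier2 and at -124 to -117 in Dusp1, and 1.83% of all promoters held one. The half-site was found in 5 of the 7 promoters, Egr1, Nr4a1, Nr4a2, Ier2 and Dusp1, against 21.2% of all promoters, and Nr4a1 alone had 4 separate matches. In that order these 5 promoters were 64.7%, 72.3%, 48.7%, 52.7% and 68% G and C, against a median of 51.7% for all promoters. The part of base composition in the matches was not tested. Of 5 further motifs, GCGNGGGCG (the EGR site, in 4.98% of all promoters) was found only in Nr4a1 and TATAAA (14.2%) only in Klf4. TGANTCA (AP-1, 7.33%), AAAGGTCA (the NR4A site, 1.43%) and CCACACCC (a KLF site, 3.22%) were found in none of the 7. A match describes these letters only and says nothing of binding in these cells.

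**Figure D1:**
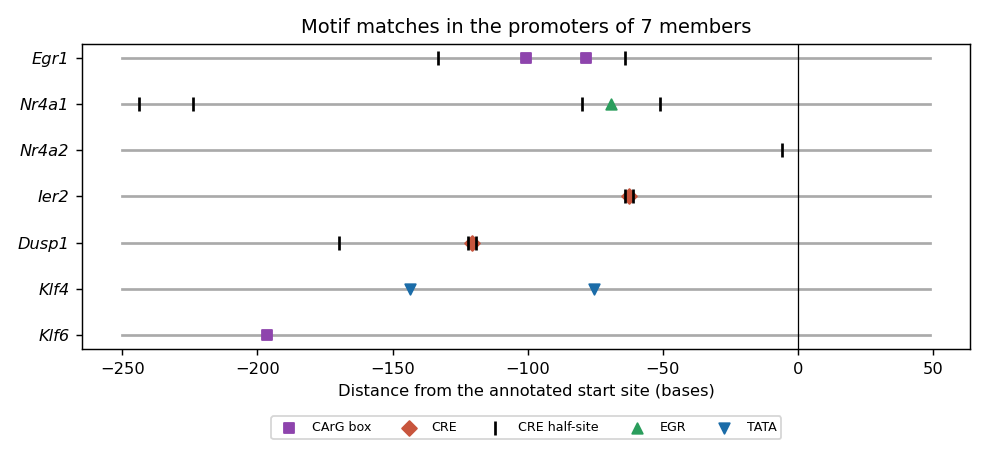
Motif matches in the promoters of the 7 matched genes, with the distance from the annotated start site in bases on the x axis and 1 gray line a gene. Squares are CArG boxes (Egr1 and Klf6), diamonds CREs (Ier2 and Dusp1), vertical strokes CRE half-sites, the upward triangle the EGR site of Nr4a1 and downward triangles the TATA matches of Klf4.

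Levels are given in FPKM (fragments per kilobase of transcript, normalized for library size), a scale on which genes can be compared with each other. For each gene the FPKM of its named transcripts were summed in each sample. Each table also lists transcripts without a gene name, which Cufflinks, the program that estimated the FPKM, assembled from that sample's reads. For several of these genes such transcripts carried part or all of the signal in some samples, so each gene is also given with the unnamed transcripts of the same Cufflinks gene added. Differences were tested with limma on log2(FPKM + 1), RSC minus SCP, and a gene was called at an unadjusted p under 0.01. Adjusted p-values are limma's with Benjamini-Hochberg adjustment over all genes tested.

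All 10 genes had a mean FPKM of 1 or more and entered the test. On named transcripts, 6 of the 10 genes were called higher in the RSCs, 1 (Egr3) was called higher in the SCPs and 3 (Nr4a2, Nr4a3 and Ier2) were not called. Among the 13003 genes tested, 18.1% were called higher in the RSCs and 22.4% higher in the SCPs. With unnamed transcripts added, 10 of 10 were called higher in the RSCs, against 23.2% of 14020 genes. Ier3, Dusp1 and Klf4 were also more than 4-fold higher on both scales, a size reached in the RSCs by 7.81% of all genes on named transcripts and by 8.57% with unnamed ones. The same size in the other direction, higher in the SCPs, was reached by 3.78% of all genes and by none of the 10, although Egr3 on named transcripts reached -4.55 on the log2 scale when 0.1 was added to the FPKM in place of 1. Every RSC sample lay above every SCP sample for 7 of the 10 genes on named transcripts (24.9% of all genes) and for 10 of 10 with unnamed transcripts (28.8%). Short unnamed transcripts that overlap Nr4a2 and Dusp1 but belong to separate Cufflinks genes are in neither sum. With these added as well, 9 of the 10 genes were called and 9 did not overlap, the exception being Nr4a2. The median log2 fold change of the 10 genes was 1.65 on named transcripts and 1.76 with unnamed ones, and that of all genes tested was -0.17 and -0.24. Median-of-ratios scaling moved the median of all genes to 0.020 and 0.0055 and changed the direction of none of the 10. Of all calls on named transcripts, 44.6% were higher in the RSCs as deposited and 56.1% under that scaling, and with unnamed ones 40.4% and 53.9%. In bulk RNA, more cells of a type that expresses a gene and more RNA per cell cannot be told apart.

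**Figure D2:**
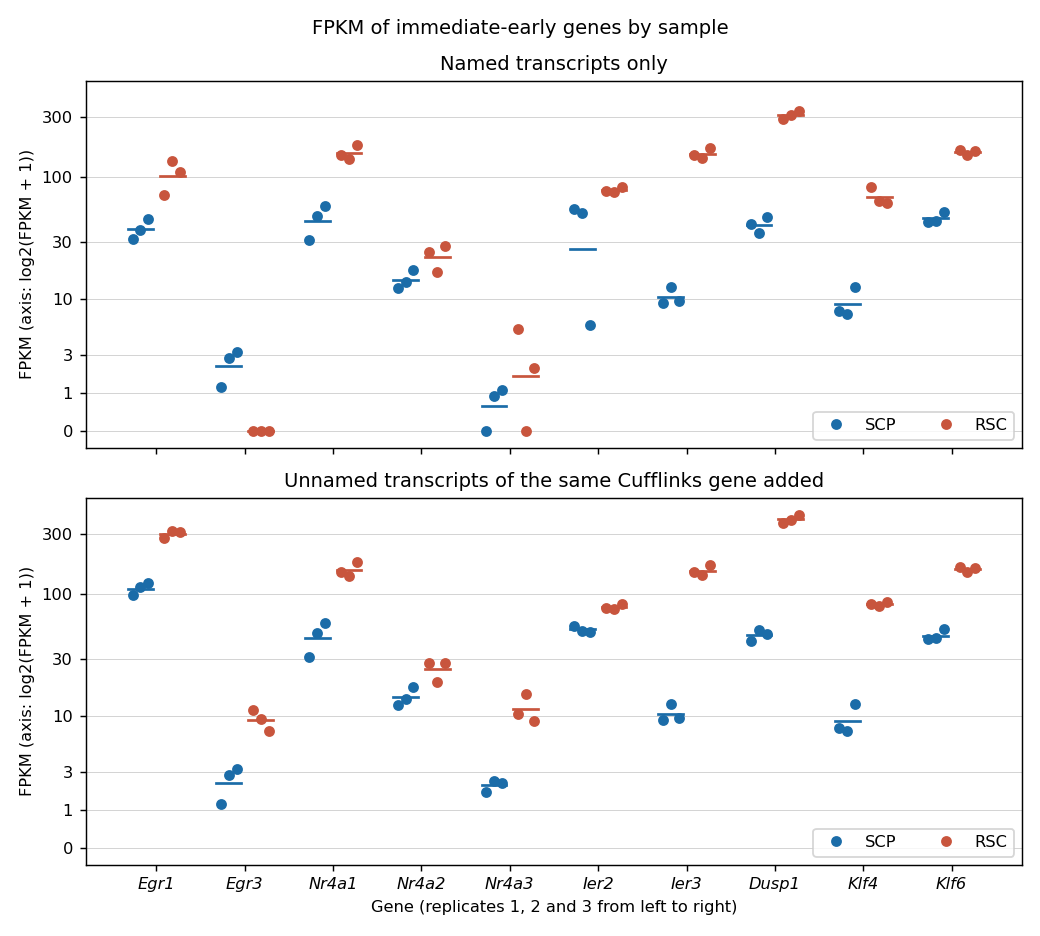
FPKM of the 10 genes in each sample on a log2(FPKM + 1) axis, named transcripts above and unnamed transcripts added below. Points are samples, with SCPs in blue and RSCs in red, and bars are group means of log2(FPKM + 1). In the lower panel every RSC point lies above every SCP point for each gene, while in the upper panel Egr3 is listed at 0 in the 3 RSCs and Ier2 has 1 low SCP.

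Ier3, Dusp1 and Klf4 showed the widest differences. Ier3, a short stress-induced protein linked to cell survival and ERK signaling, lies at chr20:3438798-3440002 on rn6. Its FPKM was 9.19, 12.7 and 9.69 in the SCPs and 150, 144 and 171 in the RSCs, values here and below being those of replicates 1, 2 and 3 in turn. The lowest RSC was thus far above the highest SCP, and no part of the signal was in unnamed transcripts. The group means were 10.5 ± 1.88 (SD, n = 3) and 155 ± 14.5 (SD, n = 3) FPKM, a ratio of 14.7. On the log2 scale this was a difference of 3.77 ± 0.14 (SE), with an adjusted p of 2.70e-05 in limma.

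Dusp1, the nuclear phosphatase that inactivates ERK, JNK and p38, lies at chr10:16970642-16973425. It was at 42.5, 35.5 and 48.0 FPKM in the SCPs and at 290, 314 and 339 FPKM in the RSCs. The groups stood well apart and the samples of each were close together. Unnamed transcripts of 1571 to 1681 bases added a part in SCP replicate 2, raising it to 51.5 FPKM, and in the 3 RSCs, raising them to 367, 391 and 429 FPKM. They made up 19.7% to 20.9% of the RSC signal. Its log2 fold change was 2.88 ± 0.13 (SE; limma, adjusted p = 4.00e-05) on named transcripts and 3.04 ± 0.10 with unnamed ones. Of the 10 genes Dusp1 had the highest level in the RSCs, above 98.3% to 98.4% of the genes with signal in those samples on named transcripts.

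Klf4, known for its part in pluripotency and in epithelial, vascular and macrophage differentiation, lies at chr5:72283311-72287669. Its FPKM was 7.84, 7.41 and 12.9 in the SCPs and 83.1, 65.2 and 62.9 in the RSCs. SCP replicate 3 was the highest SCP and was still far under the lowest RSC. Its log2 fold change was 2.81 ± 0.23 (SE; limma, adjusted p = 0.000292). Unnamed transcripts of 2646 and 2714 bases in RSC replicates 2 and 3 brought the RSCs to 83.1, 81.3 and 86.4 FPKM. The coefficient of variation of the RSCs was 15.7% before and 3.12% after this addition, and the log2 fold change became 3.07 ± 0.20.

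Klf6, an injury-induced factor known from liver and vessel wounds and from axon growth, lies at chr17:67887939-67945038. Its FPKM was 43.6, 44.5 and 52.9 in the SCPs and 166, 150 and 163 in the RSCs. The groups did not overlap, and of its 2 named transcripts only the 4206-base one had signal. The RSC mean was 3.40 times the SCP mean, with a log2 fold change of 1.75 ± 0.10 (SE; limma, adjusted p = 8.44e-05).

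**Figure D3:**
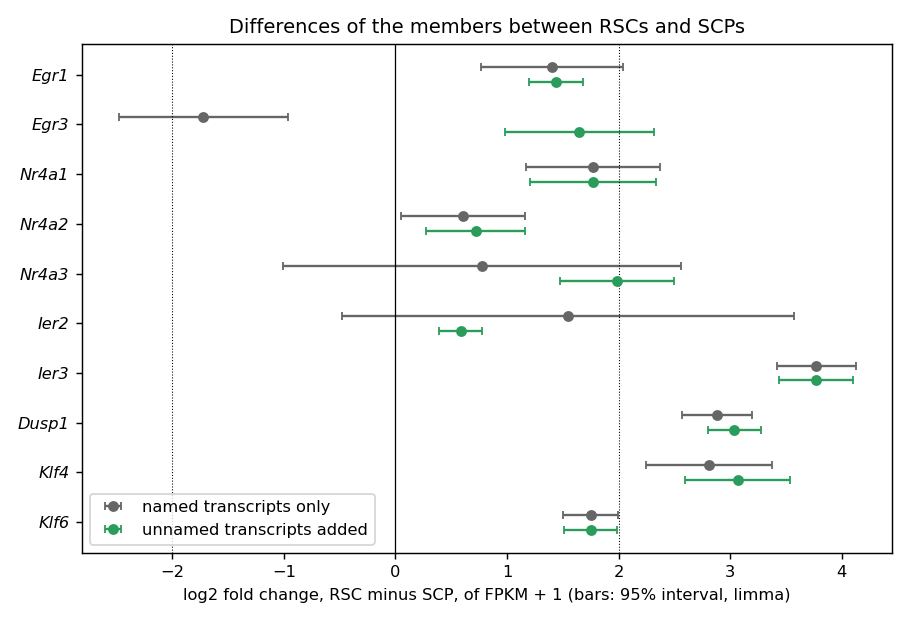
Log2 fold change of FPKM + 1, RSC minus SCP, for the 10 genes, with 95% intervals from limma, on named transcripts (gray) and with unnamed transcripts added (green). Dotted lines mark 4-fold. The green point of Egr3 stands right of 0 and the gray one left of 0, and the intervals of Nr4a3 and Ier2 are wide on named transcripts and narrow with unnamed ones.

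The EGR proteins are activators that bind GC-rich sites and are held back by the NAB co-repressors. Egr1 lies at chr18:27657903-27660101 and its 1527-base transcript was at 31.9, 37.7 and 46.2 FPKM in the SCPs and at 72.7, 136 and 109 FPKM in the RSCs. The groups did not overlap, with an RSC mean 2.75 times the SCP mean. Cufflinks marked this transcript as having low data in every sample. An unnamed transcript of 3115 to 3384 bases from the same Cufflinks gene was present in each of the 6 samples and held 57.0% to 74.1% of the Egr1 signal. With it Egr1 stood at 98.1, 114 and 122 FPKM in the SCPs and at 280, 317 and 311 FPKM in the RSCs. The samples of each group were closer together, with a coefficient of variation of 6.56% in place of 30.1% in the RSCs. The log2 fold change was much the same on both scales, 1.40 ± 0.26 (SE; limma, adjusted p = 0.00617) on named transcripts and 1.44 ± 0.10 with unnamed ones. Both were smaller than the 3 genes past 4-fold.

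Egr3, best known in muscle spindles, neurons and lymphocytes, lies at chr15:51756704-51759476. On named transcripts it was at 1.25, 2.79 and 3.20 FPKM in the SCPs and was listed at 0 in the 3 RSCs. Cufflinks marked each of its 4 named transcripts as having low data in the 3 RSCs and in none of the SCPs. On these listed values Egr3 was called higher in the SCPs, with a log2 fold change of -1.72 ± 0.31 (SE; limma, adjusted p = 0.00563), and no ratio can be given. The RSC tables instead held unnamed transcripts of 3250 to 3303 bases over the same position, in 1 piece in RSC replicates 1 and 3 and in a pair in RSC replicate 2. These gave 11.4, 9.51 and 7.46 FPKM, while the SCPs had none. With them every RSC was above every SCP, the RSC mean was 3.92 times the SCP mean, and the log2 fold change was 1.65 ± 0.28 (SE; limma, adjusted p = 0.00199). The direction of Egr3 thus depended on whether the unnamed transcripts were counted, and its level was among the 2 lowest of the 10 genes in each group.

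**Figure D4:**
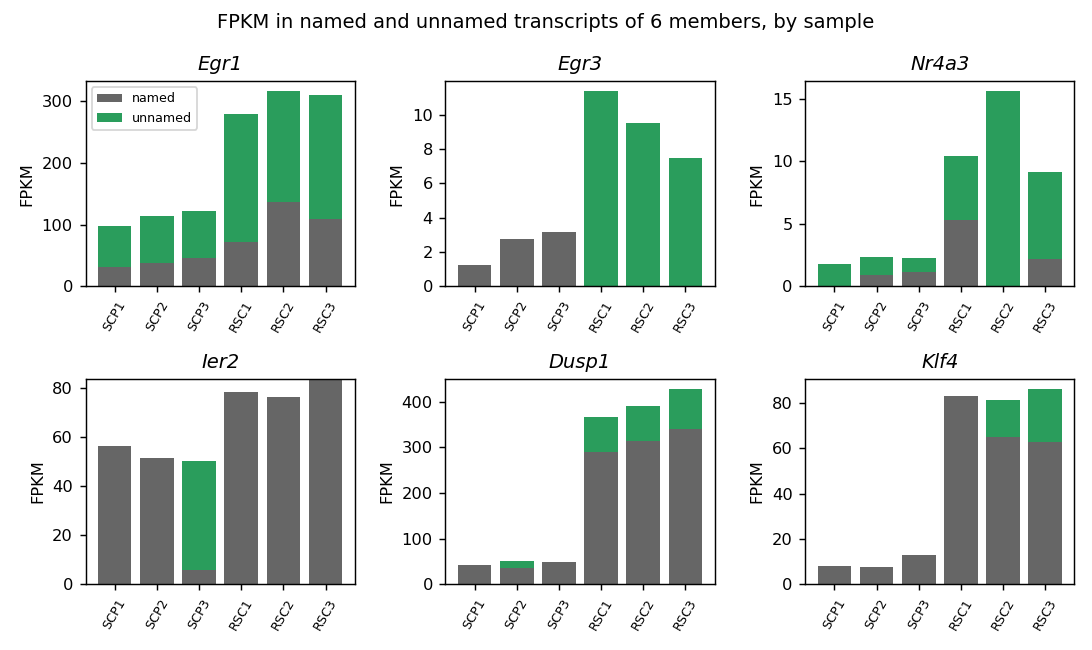
FPKM of 6 of the genes in each sample, with named transcripts in gray and unnamed transcripts of the same Cufflinks gene stacked in green, each panel on its own scale from 0. The RSC signal of Egr3 is all green and its SCP signal all gray, SCP replicate 3 of Ier2 is mostly green, and each Egr1 bar is more green than gray.

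The NR4A receptors act as monomers, and Nr4a1 and Nr4a2 also pair with RXR proteins. Nr4a1 (Nur77), induced by many signals in immune, neural and endocrine cells, lies at chr7:142900807-142920216. It was at 31.3, 49.1 and 59.2 FPKM in the SCPs and at 151, 140 and 180 FPKM in the RSCs. Each SCP was under each RSC, with a coefficient of variation of 30.4% in the SCPs and 13.1% in the RSCs. Its log2 fold change was 1.77 ± 0.24 (SE; limma, adjusted p = 0.00208). Of its 3 named transcripts only the 2491-base one had signal in any sample.

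Nr4a2 (Nurr1), needed for midbrain dopamine neurons, lies at chr3:43110416-43119284. Its FPKM was 12.6, 14.1 and 17.7 in the SCPs and 25.2, 16.9 and 28.0 in the RSCs. RSC replicate 2 lay under SCP replicate 3, so the groups overlapped. The log2 fold change of 0.61 ± 0.23 (SE; limma, adjusted p = 0.0725, 95% interval 0.051 to 1.16) was not called. Unnamed transcripts of 4768 and 4796 bases brought RSC replicates 1 and 2 to 27.8 and 19.5 FPKM, above every SCP in this sum. With the transcripts of separate Cufflinks genes added too, the SCPs were at 12.6, 18.5 and 25.1 FPKM and the RSCs at 27.8, 19.5 and 35.7 FPKM, so that the groups overlapped again and the difference of 0.55 ± 0.30 (SE; limma, adjusted p = 0.146) was not called. Without those of separate genes the difference was 0.72 ± 0.19 on the log2 scale (SE; limma, adjusted p = 0.0131) and was called. It was no longer called without SCP replicate 1, SCP replicate 2, RSC replicate 1 or RSC replicate 3, where it was 0.62 to 0.69. On named transcripts alone it was called only without RSC replicate 2, at 0.81. The 3 named transcripts with signal shared it unevenly between samples, with the 2572-base one, marked as low data in every sample, ranging from 2.89 FPKM in RSC replicate 2 to 18.1 FPKM in RSC replicate 1.

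Nr4a3 (Nor1), known in blood and vessel wall cells, lies at chr5:63781801-63822890. On named transcripts it was listed at 0 in SCP replicate 1 and RSC replicate 2 and was at 0.884 and 1.12 FPKM in the other SCPs and 5.35 and 2.16 FPKM in the other RSCs. The groups overlapped, and the log2 fold change of 0.78 ± 0.73 (SE; limma, adjusted p = 0.421, 95% interval -1.01 to 2.56) was not called. All 6 samples held unnamed transcripts of this gene, of 1470 to 5719 bases, which made up 48.6% of the signal in RSC replicate 1 and all of it in SCP replicate 1 and RSC replicate 2. With them Nr4a3 was at 1.79, 2.40 and 2.28 FPKM in the SCPs and at 10.4, 15.6 and 9.19 FPKM in the RSCs. Every RSC was then above every SCP, and the log2 fold change was 1.99 ± 0.21 (SE; limma, adjusted p = 0.000270).

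Ier2, a small nuclear protein induced by growth factors, lies at chr19:25774146-25775670. It was at 56.3, 51.3 and 5.93 FPKM in the SCPs and at 78.4, 76.1 and 83.7 FPKM in the RSCs. SCP replicate 3 stood far under the other SCPs. Although each RSC was above each SCP, the log2 fold change of 1.55 ± 0.82 (SE; limma, adjusted p = 0.175, 95% interval -0.47 to 3.57) was not called. Without SCP replicate 3 it was 0.55 and was called. In that sample the named transcript was marked as low data, and an unnamed transcript of 1539 bases, close to the 1525 bases of the named one, held 44.3 FPKM. With it SCP replicate 3 was at 50.3 FPKM, next to the other SCPs. The log2 fold change was then 0.59 ± 0.080 (SE; limma, adjusted p = 0.000814), the smallest of the 10 genes, with an RSC mean 1.51 times the SCP mean.

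The order of levels differed between the groups. With unnamed transcripts added, the SCPs had Egr1 highest (98.1 to 122 FPKM), followed by Ier2, Dusp1, Klf6 and Nr4a1, whose ranges overlapped between 31.3 and 59.2 FPKM. Nr4a2, Ier3 and Klf4 came next, with overlapping neighbors between 7.41 and 17.7 FPKM, and Egr3 and Nr4a3 overlapped at the bottom. In the RSCs Dusp1 (367 to 429 FPKM) was above Egr1 (280 to 317 FPKM) in every sample. Klf6, Nr4a1 and Ier3 followed with overlapping ranges from 140 to 180 FPKM, and Klf4 and Ier2 overlapped between 76.1 and 86.4 FPKM. Nr4a2 (19.5 to 28.0 FPKM) stood above Nr4a3 and Egr3, which overlapped. Ier2 moved from the second place of the SCPs to the seventh of the RSCs, and Ier3 from the seventh to the fifth.

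Within each group, some samples were often the lowest or the highest of the 3. With unnamed transcripts added, SCP replicate 1 was the lowest SCP for 8 of the 10 genes and SCP replicate 3 the highest for 6. RSC replicate 3 was the highest RSC for 6 genes and RSC replicate 2 the lowest for 6. These counts were not made over all genes, so a shift of a whole sample cannot be told from a trait of these genes. The coefficient of variation had a median of 16.3% over the 10 genes in the SCPs, from 6.12% for Ier2 to 42.6% for Egr3. In the RSCs it had a median of 8.63%, from 3.12% for Klf4 to 29.2% for Nr4a3. Together the 10 genes held 236 to 257 FPKM in each SCP and 1022 to 1140 FPKM in each RSC on named transcripts.

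Related genes of the same pathways were taken from lists chosen with earlier results of these data known. The lists held 106 genes, of which 96 were tested on named transcripts and 100 with unnamed ones. On named transcripts 37 were called higher in the RSCs and 12 in the SCPs, and with unnamed transcripts 54 and 18. Of all genes tested, 18.1% and 22.4% were called so on named transcripts, and 23.2% and 34.1% with unnamed ones. Most of the related genes called higher in the RSCs were other immediate-early genes. Of 39 of these tested, 27 were called higher in the RSCs and 3 in the SCPs on named transcripts, with a median log2 fold change of 1.51. With unnamed transcripts 33 and 3 were called and the median was 1.67. Outside this list, 10 of 57 related genes were called higher in the RSCs and 9 in the SCPs on named transcripts, and 21 and 15 of 61 with unnamed ones, where 34.1% of all genes were called higher in the SCPs. Median-of-ratios scaling of the samples took the calls of Klf12, Spred3, Elk1 and Mapk7 on named transcripts, all higher in the SCPs, and gave calls to Nab1, Dusp6 and Rps6ka1. With unnamed ones it took those of Rxra, Dusp16, Crtc1, Araf, Map2k5 and Mapk7, also higher in the SCPs, and gave calls to Dusp6, Atf1, Map2k2, Zfp36l1, Rhob and Errfi1, all higher in the RSCs. Calls higher in the RSCs then numbered 40 of 48 on named transcripts and 60 of 72 with unnamed ones. No related gene called under both scalings changed direction between them.

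Among the 39 other immediate-early genes tested, 11 were called and over 4-fold higher in the RSCs on named transcripts, against 7.81% of all genes. The 3 with the largest log2 fold changes were Cebpd, an acute phase activator (4.44), Bhlhe40, a circadian repressor (4.14), and Nfkbia, the inhibitor of NF-κB (4.04). Nfkbia was at 10.7, 15.4 and 17.4 FPKM in the SCPs and at 279, 226 and 243 FPKM in the RSCs, with no overlap. The others were Rgs1 (3.58) and Gem (2.75), which act on G protein and small GTPase signaling, Sgk1, a serum-induced kinase (3.12), Cebpb (3.05), Csrnp1 (2.94), Ptgs2, the inducible prostaglandin synthase (2.88), Zfp36, which destabilizes mRNAs (2.42), and Socs3, an inhibitor of cytokine signaling (2.25). With unnamed transcripts Socs3 came to 1.74 and Ptgs2 to 4.28, and Rgs2 (3.47), Trib1 (2.58), Nfkbiz (2.40) and Tnfaip3 (2.25) were also called over 4-fold higher. That made 14 of 39 on this scale, against 8.57% of all genes. Higher in the SCPs were Ctgf (-2.43), a matrix protein and YAP target, Hes1 (-2.36), a Notch target, and Homer1 (-1.23 with unnamed transcripts), a synaptic scaffold. Hes1 was less than 4-fold higher in the SCPs with unnamed transcripts, at -1.74.

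Egr2 was the largest difference among the EGR relatives. It was at 3.10, 4.25 and 3.80 FPKM in the SCPs and at 38.3, 34.7 and 39.2 FPKM in the RSCs, with a log2 fold change of 3.03 ± 0.14 (SE; limma, adjusted p = 4.70e-05). On named transcripts 2 of 4 genes of this list, Egr2 and Egr4, were called higher in the RSCs, against 18.1% of all genes. With unnamed transcripts the NAB co-repressors Nab1 (0.53) and Nab2 (0.68) were called too, where 23.2% of all genes were called higher in the RSCs. Of the 3 RXR partners, Rxrg was called higher in the SCPs on both scales, Rxra with unnamed transcripts only and not under median-of-ratios scaling, and Rxrb on neither. The shares of all genes called higher in the SCPs were 22.4% on named transcripts and 34.1% with unnamed ones. Rxrg was at 14.7, 16.1 and 26.0 FPKM in the SCPs and at 6.01, 4.58 and 5.82 FPKM in the RSCs, a log2 fold change of -1.59 ± 0.25 (SE; limma, adjusted p = 0.00318).

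Of the 11 other KLF genes tested on named transcripts, 2 were called higher in the RSCs and 4 in the SCPs. The shares of all genes were 18.1% and 22.4%. Klf10, a TGF-β-induced factor, had a log2 fold change of 1.72 on both scales. Klf9, a glucocorticoid-responsive factor, showed the same pattern as Egr3. It was listed at 0 in the 3 RSCs on named transcripts (log2 fold change -1.88, against 2.58 to 2.90 FPKM in the SCPs) and was at 23.5, 25.3 and 25.9 FPKM there with unnamed ones, where its log2 fold change was 2.81. Among the 46 related genes called on both scales Klf9 was the only 1 called in opposite directions. Klf2 was called only with unnamed transcripts (2.23). With them 5 of 12 KLF genes were called higher in the RSCs and 3 in the SCPs, against 23.2% and 34.1% of all genes. The largest difference of those higher in the SCPs was that of the erythroid factor Klf1 (-1.71).

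Of the other MAP kinase phosphatases 2 of 6 tested on named transcripts were called higher in the RSCs and none in the SCPs, against 18.1% and 22.4% of all genes. Dusp10, which acts on JNK and p38, was at 2.88, 3.53 and 2.46 FPKM in the SCPs and at 50.6, 45.9 and 46.8 FPKM in the RSCs, a log2 fold change of 3.63 ± 0.14 (SE; limma, adjusted p = 3.00e-05). Dusp6, the cytoplasmic ERK phosphatase, was not called at 0.21 (95% interval -0.023 to 0.45). Dusp4 was listed at 0 in every sample on named transcripts and was called higher in the SCPs with unnamed ones (-1.12). With unnamed transcripts 3 of 8 phosphatases were called higher in the RSCs and 2 in the SCPs, against 23.2% and 34.1% of all genes. Both other IER genes were called higher in the RSCs, with Ier5 at 2.98 and Ier5l at 0.81. Ier5 was at 9.08, 9.08 and 9.28 FPKM in the SCPs and at 81.2, 80.2 and 76.3 FPKM in the RSCs.

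Among the genes that act upstream, the ERK cascade kinases were called in both directions. The SRF, ternary complex, MRTF and CREB factors were called only higher in the SCPs on named transcripts, and in both directions with unnamed ones. Of all genes tested, 18.1% were called higher in the RSCs and 22.4% in the SCPs on named transcripts. With unnamed transcripts these shares were 23.2% and 34.1%. Of 11 SRF, ternary complex, MRTF and CREB factors tested on named transcripts none was called higher in the RSCs (limma, unadjusted p under 0.01) and 2 were called higher in the SCPs. With unnamed transcripts 1 of 12 was called higher in the RSCs (Crtc3, 0.50) and 2 in the SCPs. Srf was at 13.5 to 21.1 FPKM in the SCPs and at 12.2 to 18.1 FPKM in the RSCs and was not called (-0.22, 95% interval -0.79 to 0.35). Elk3 was called higher in the SCPs on named transcripts (-1.11) but not with unnamed ones (-0.38), and Elk1 was called higher in the SCPs on both scales, at -0.59 and -1.12. Of the 14 ERK cascade kinases, Mapk3 (ERK1) was called higher in the RSCs (1.56) and Mapk7 in the SCPs (-0.67) on named transcripts, while with unnamed ones 4 and 5 were called, with Rps6ka1 (1.90) and Rps6ka2 (-0.88) the largest. Of the 6 Sprouty and Spred inhibitors tested, Spry2 was called higher in the RSCs (0.70) and Spred3 in the SCPs (-0.79) on named transcripts. With unnamed ones Spry1 (0.80) and Spry2 were called higher in the RSCs and Spred2 (-0.89) in the SCPs.

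**Figure D5:**
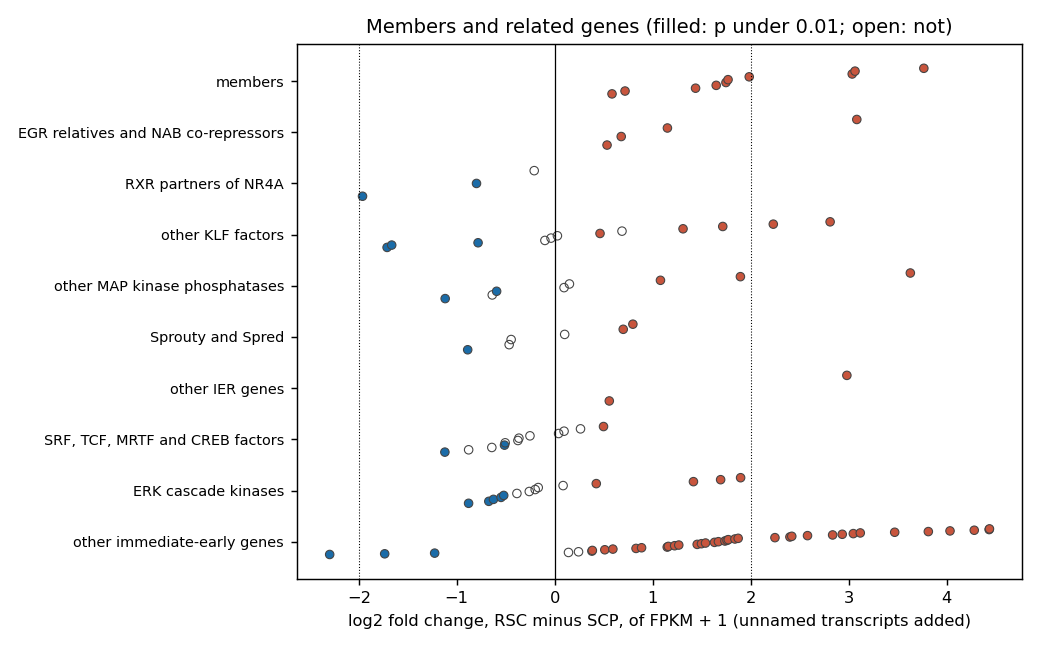
Log2 fold change of FPKM + 1, RSC minus SCP, with unnamed transcripts added, of each tested gene of the 10-gene set (top row, members) and of 9 lists of related genes. Filled points had a limma p under 0.01 (red higher in the RSCs, blue higher in the SCPs), open points did not, and dotted lines mark 4-fold. All 10 points of the top row are red, and 33 of the 39 points of the bottom row.

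Markers of several other cell types differed between the groups. For the counts of calls below, 18.1% of all genes tested on named transcripts were called higher in the RSCs and 22.4% in the SCPs. The summed FPKM of 18 leukocyte markers on named transcripts was 25.5 to 65.6 in the SCPs and 2868 to 3592 in the RSCs, and 13 of the 14 tested were called higher in the RSCs. Ptprc, which marks all leukocytes, was at 0.193 to 0.758 FPKM in the SCPs and at 7.33 to 11.9 FPKM in the RSCs, and Cd68 was listed at 0 in SCP replicates 1 and 2, at 5.58 FPKM in SCP replicate 3 and at 218 to 259 FPKM in the RSCs. Cybb was listed at 0 in the RSCs by name but with unnamed transcripts was at 0.341 to 1.92 FPKM in the SCPs and 29.7 to 37.1 FPKM in the RSCs. The sum of 8 fibroblast markers was 848 to 1188 FPKM in the SCPs and 5417 to 8074 FPKM in the RSCs, with 6 of 8 called higher in the RSCs, and that of 9 endothelial markers was 48.8 to 83.9 and 122 to 137 FPKM, with 2 of 9 called. Mural cell markers overlapped between the groups, at 74.5 to 266 and 116 to 181 FPKM. Sums higher in the SCPs were those of erythroid cells (16683 to 74642 against 1.53 to 2.79 FPKM), neurons (7.87 to 21.2 against 0.220 to 1.74 FPKM) and skeletal muscle (56.7 to 219 against 23.3 to 28.7 FPKM), with 5 of 6, 2 of 4 and 5 of 6 of the tested genes called higher in the SCPs. The muscle gene Des was called higher in the RSCs, at 23.0 to 28.0 against 6.03 to 13.3 FPKM, and made up most of their muscle sum. The sum of 11 Schwann cell lineage markers was 537 to 591 FPKM in the SCPs and 1904 to 2436 FPKM in the RSCs, with 4 of 9 tested called higher in the RSCs and 2 in the SCPs. Sox10, which defines the lineage, was present in each sample, at 175 to 181 and 143 to 149 FPKM, and was called higher in the SCPs (-0.30). Cdh2, an adhesion protein of precursors, was called higher in the SCPs too (-4.52). Several of the genes described here are also expressed by macrophages, fibroblasts or endothelial cells, and the part of these cells in the differences was not tested.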

How the data were processed

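The authors made stranded mRNA libraries of 3 SCP and 3 RSC samples and mapped the reads to rn6. The submitters' processing notes name FastQC 0.11.2, TopHat2 2.1.0 and Cufflinks 2.2.1. The deposited tables give each transcript's FPKM, which Cufflinks scales by transcript length and mapped fragments, and its read coverage, the deposited signal from which relative depth was read. They hold no counts, so the absolute depth is unknown, no count test was run and precision rests on 3 samples a group. Relative to the deepest sample, depth was 0.88 to 1.00 for SCPs and 0.79 to 0.84 for RSCs. Unnamed transcripts held 18.6% to 31.9% of a sample's FPKM.

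Named transcripts were summed by symbol after 77 per table whose names were dates were left out, and stray cells in 59 lines were ignored. Unnamed transcripts were added to the gene of the same Cufflinks gene that they overlap most. Positions span all transcripts of a symbol on rn6, counted from 1. Genes averaging 1 FPKM or more were compared with limma 3.58.1 (R 4.3.3) on log2(FPKM + 1) with a variance trend. Since 1 is added, fold changes of low genes are understated. The paper's thresholds were used, p under 0.01 without adjustment and, for 4-fold, an absolute log2 fold change above 2. Scripts were tested on simulated data. Tables and plots used pandas 2.3.3 and matplotlib 3.10.9.

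The 10 genes and the lists were chosen with earlier results of these data known. Named were the 10 genes and, in each list of related genes, those past both thresholds, the called gene that differed most in either direction, and up to 4 markers per list. The values of 1 marker are not reported here. Egr4, Nab1, Nab2, Dusp6, Srf, Ier5l and Homer1, and genes called over 4-fold only with unnamed transcripts, were chosen after seeing their values. The labels give the replicate numbers. Alternatives were another pseudocount (0.1), no filter or a mean of at least 5 FPKM, quantile or median-of-ratios scaling, no variance trend, a replicate block, adjusted p, the highest transcript per symbol, values of 0 left out, unnamed transcripts added and each sample left out. After the data were seen, unnamed transcripts were also combined with 4 of these, and with the transcripts over Nr4a2 and Dusp1 that belong to separate Cufflinks genes.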

Additional observations from a re-analysis of the deposited data

Results flagged for a closer look

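Short unnamed transcripts over Nr4a2 and Dusp1 that Cufflinks placed in a separate gene entered none of the sums above. They are given here because they carry signal in data that the comparisons did not use. Over Nr4a2, unnamed transcripts of 517 to 561 bases were at 4.40 FPKM in SCP replicate 2, 7.47 FPKM in SCP replicate 3 and 7.70 FPKM in RSC replicate 3. Over Dusp1, an unnamed transcript of 163 bases was at 218 FPKM in RSC replicate 1 and 1 of 141 bases at 323 FPKM in RSC replicate 3, while the other 4 samples had none. With them added, Nr4a2 overlapped between the groups and was not called (0.55 on the log2 scale), and Dusp1 was at 3.53. FPKM is scaled by transcript length, so a fragment counts for more in these short pieces than in the 1927-base named transcript of Dusp1. The 3.53 may thus overstate the difference of Dusp1.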

How the results depend on the processing

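Of 265 values of single genes recomputed under the alternatives, 224 kept their direction and their side of p under 0.01, 30 gained a call and 11 changed direction. Every change of direction was Egr3 with unnamed transcripts added, where its log2 fold change was 1.65, and 1.86 with median-of-ratios scaling, 1.65 with the replicate block, 2.01 with a pseudocount of 0.1, 1.65 with transcripts of separate Cufflinks genes and, without SCP replicates 1, 2 and 3 and RSC replicates 1, 2 and 3 in turn, 1.37, 1.75, 1.82, 1.52, 1.64 and 1.79. The calls gained were those of Ier2 (12), Nr4a3 (11) and Nr4a2 (7), of which 1 for Ier2 (without SCP replicate 3) and 1 for Nr4a2 (without RSC replicate 2) were on named transcripts. The number of the 10 genes called was 7 on named transcripts and 10 with unnamed ones, and with 1 sample left out 6 to 8 and 9 to 10. With transcripts of separate Cufflinks genes 9 were called, Nr4a2 (0.55) not. Under the filter, and with no value, were Egr3 without SCP replicate 2 or 3, Nr4a3 without RSC replicate 1, and both with a mean of at least 5 FPKM. The number over 4-fold was 3, but 4 on named transcripts with a pseudocount of 0.1, where Egr3 was at -4.55, 6 with unnamed transcripts and median-of-ratios scaling and 5 with unnamed transcripts and a pseudocount of 0.1, and 3 to 4 with 1 sample left out. Related genes called numbered 49 on named transcripts and 72 with unnamed ones, and with 1 sample left out 40 to 45 and 60 to 68. Median-of-ratios scaling moved the median log2 fold change of all genes from -0.17 to 0.020 and changed the direction of none of the 10 genes. Same-numbered samples did not deviate together (correlations of 0.0435, -0.0049 and 0.0259), and with the replicate block 7 of the 10 genes, 3 over 4-fold and 39 related genes were called. Without read counts, how depth limits the low values of Egr3 and Nr4a3 is unknown.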
